A study of Mus musculus with 6 samples.

Results

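The Etv transcription factors and the feedback inhibitors of the FGF and Ras-ERK pathway were examined in the hippocampus, in mice with and without a functional maternal copy of *Ube3a*. The group holds 10 genes of the 25239 listed in the counts, namely the 3 factors *Etv1*, *Etv4* and *Etv5*, the 5 Sprouty and Spred genes *Spry1*, *Spry2*, *Spry4*, *Spred1* and *Spred2*, and the 2 phosphatase genes *Dusp4* and *Dusp6*. They were chosen by family and role after *Etv1* was seen to be among the clearest falls between the genotypes. The differences between genotypes are therefore given for these genes as a description and not as a test of the group.

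RNA was sequenced from the hippocampus of 3 Ube3am+/p+ mice (WT) and 3 Ube3am-/p+ mice, with 1 library per mouse. All were male C57BL/6 mice, and the study's methods give an age of 6 to 8 weeks. The Ube3am-/p+ mouse, a model of Angelman syndrome, has lost the maternal allele of *Ube3a* and keeps the paternal one, which WT mice carry as well. The labels name no other allele and no treatment.

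UBE3A is an E3 ubiquitin ligase that attaches ubiquitin to other proteins, and mature neurons make it mainly from the maternal allele. In FGF signalling, a secreted ligand binds a receptor tyrosine kinase, and the adaptors FRS2, GRB2 and SOS then switch on Ras, which drives the kinases RAF, MEK and ERK. Active ERK relieves repression by Capicua (*Cic*) and raises transcription of *Etv1*, *Etv4* and *Etv5*, the PEA3 group of ETS factors, and of Sprouty, Spred and Dusp genes. The Sprouty and Spred proteins restrain Ras and RAF activation, and the DUSP phosphatases dephosphorylate ERK, so that the pathway limits itself. In the brain these genes are used in patterning, in the making of glia and in neurons, where ETV1 is a known activity-regulated factor.

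The sequence before the start site is shown for *Etv1*, the member with the largest difference, and for *Dusp6* and *Spry2*, the members whose start window holds a Capicua octamer. Each stretch is the 250 bases before a RefSeq start on build GRCm38.p6, written 5′ to 3′ on the strand of the gene, with the octamer in capitals.
*Etv1* (chr12:38779832-38780081, plus strand): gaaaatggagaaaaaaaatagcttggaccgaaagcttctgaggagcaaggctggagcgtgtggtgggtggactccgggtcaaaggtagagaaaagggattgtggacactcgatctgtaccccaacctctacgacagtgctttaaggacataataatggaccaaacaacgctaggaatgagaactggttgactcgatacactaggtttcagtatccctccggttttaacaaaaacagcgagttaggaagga
*Dusp6* (chr10:99262981-99263230, plus strand): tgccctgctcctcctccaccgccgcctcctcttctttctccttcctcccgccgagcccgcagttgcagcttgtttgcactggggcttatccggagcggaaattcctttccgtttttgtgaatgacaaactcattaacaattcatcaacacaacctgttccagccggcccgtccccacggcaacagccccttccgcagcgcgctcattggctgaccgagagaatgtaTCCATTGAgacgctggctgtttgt
*Spry2* (chr14:105896820-105897069, minus strand): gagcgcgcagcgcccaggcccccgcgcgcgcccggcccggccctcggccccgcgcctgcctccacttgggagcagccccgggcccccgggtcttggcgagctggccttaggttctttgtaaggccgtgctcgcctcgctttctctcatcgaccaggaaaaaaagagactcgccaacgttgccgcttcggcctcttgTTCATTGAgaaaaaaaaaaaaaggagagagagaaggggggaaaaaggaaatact
*Etv1* spans 38779380 to 38870484 on chromosome 12 (plus strand), *Dusp6* 99263231 to 99267489 on chromosome 10 (plus strand) and *Spry2* 105891947 to 105896819 on chromosome 14 (minus strand). The *Etv1* stretch ends at the base before position 38780082 and so lies inside the annotated span of the gene, after its first base. The stretches of *Dusp6* and *Spry2* lie upstream of their first annotated exon.

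The search covered 9 windows of 300 bases, 250 before and 50 from the start, for 7 of the 10 genes, and *Etv4*, *Spry4* and *Dusp4* had none. The Capicua octamers searched were TGAATGAA, TGAATGGA, TCAATGAA and TCAATGGA on both strands, and none of these overlaps the other motifs searched. They occurred in 2 of the 9 windows and in 1260 (3.84%) of the 32851 windows of the RefSeq table. *Dusp6* held TCCATTGA, which is TCAATGGA read on the other strand, at bases 24 to 17 before its start and again at bases 2 to 9 from it. *Spry2* held TTCATTGA, which is TCAATGAA on the other strand, at bases 54 to 47 before its start. Both *Etv1* windows, the other starting at position 38783711, held none of the 4 octamers. The ETS octamers CCGGAAGT and CCGGAAGC were in 0 of the 9 windows and in 6.42% of all windows, and the cyclic AMP response element TGACGTCA was in 0 of the 9 and in 1.79% of all. A match is a match of letters in this window and does not show a bound site.

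The libraries held 7293272 to 8675252 gene counts in WT mice and 8871052 to 11314409 in Ube3am-/p+ mice, and 14445 genes had enough counts to be tested. Levels are in CPM, the counts of a gene per 1000000 gene counts of its library. Log2 fold changes are Ube3am-/p+ over WT, from edgeR's quasi-likelihood fit. Their standard error (SE) was derived, as the size of the log2 fold change over the square root of the test's F statistic. *Ube3a* itself, the check of the labels, had 104, 141 and 151 CPM in WT mice 1, 2 and 3, and 96.8, 82.9 and 80.6 CPM in Ube3am-/p+ mice 1, 2 and 3. Its groups did not overlap, and it fell by 0.58 on the log2 scale (SE 0.12, edgeR adjusted p = 0.0363). The libraries also differed in how their counts followed the GC content of the transcripts, a property that moved with genotype. Spearman's rho across 14201 genes, between GC content and a library's deviation from the mean of all 6, was 0.05, -0.51 and -0.57 in WT mice 1 to 3 and 0.06, 0.53 and 0.53 in Ube3am-/p+ mice 1 to 3. Both mice numbered 1 were thus near 0. Values corrected for transcript GC content and length, and the ratio of the mice numbered 1 alone, are therefore set beside the results, and the part of GC content in them was not tested further. After the correction *Ube3a* differed by -0.20 (SE 0.08, edgeR adjusted p = 0.24). Its log2 ratio between the mice numbered 1 was -0.10, with a 95% counting interval of -0.23 to 0.04. Exons of *Ube3a* share 1803 bases with its antisense transcript *Snhg14*, which had 3194 counts over the 6 libraries, and reads of these cannot be told apart without a known strand setting.

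*Etv1*, an ETS transcription factor, was the member with the largest difference, at 93.2, 111 and 107 CPM in WT mice 1 to 3 and 65.5, 72.1 and 62.6 CPM in Ube3am-/p+ mice 1 to 3. Every Ube3am-/p+ mouse was below every WT mouse. The mean fell by 35.6%, from 104 ± 9.24 to 66.8 ± 4.86 CPM (SD, n = 3 each), which is a log2 fold change of -0.62 (SE 0.10). The underlying counts were 791, 960 and 781 in WT mice and 581, 816 and 659 in Ube3am-/p+ mice. Counting error alone gives a coefficient of variation of 3.44% and 3.82% in the 2 groups, and the mice varied by 8.91% and 7.29%. *Etv1* was the 1 member that passed the test over the whole table, an adjusted p below 0.05 with a fold change above 1.2, and 0 members passed with a higher level. Over all genes, 0.990% passed lower and 1.02% passed higher. *Etv1* was part of the reason for choosing the group, so nothing is read from this count.

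After the correction for GC content and length, the difference of *Etv1* was -0.32 (SE 0.08), and it no longer passed. The transcript of *Etv1* has 39.8% GC, the lowest of the 10 genes. Between the mice numbered 1, the log2 ratio of its CPM was -0.51, with a 95% interval of -0.67 to -0.35 that covers counting error only. *Etv1* also did not pass without WT mouse 2 (-0.56), WT mouse 3 (-0.60), Ube3am-/p+ mouse 2 (-0.67) or Ube3am-/p+ mouse 3 (-0.58), settings in which 0 to 2 genes of the whole table passed. In bulk tissue, fewer cells that express a gene and less RNA per cell cannot be told apart, for *Etv1* and for each gene that follows.

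*Etv5*, a close relative of *Etv1*, had 86.2, 84.8 and 94.2 CPM in WT mice and 74.7, 91.7 and 86.3 CPM in Ube3am-/p+ mice. The groups overlapped, with means of 88.4 ± 5.05 and 84.3 ± 8.68 CPM (SD, n = 3 each) and a log2 fold change of -0.05 (SE 0.10). Between the mice numbered 1, the log2 ratio of *Etv5* was -0.21, with a 95% counting interval of -0.36 to -0.05. *Etv4*, the third PEA3 factor, had few counts, at 9.89, 10.6 and 9.32 CPM in WT mice and 9.58, 12 and 10.7 CPM in Ube3am-/p+ mice. Its groups overlapped as well, at 9.94 ± 0.642 and 10.8 ± 1.22 CPM (SD, n = 3 each), and its log2 fold change was 0.14 (SE 0.17). With 68 counts in its lowest library, counting error gave *Etv4* a coefficient of variation of 11.1% in WT mice, above the 6.46% seen between them.

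The balance among the Etv factors can be read within each library, where depth cancels. Counts of *Etv1* per count of *Etv5* were 1.08, 1.3 and 1.14 in WT mice and 0.876, 0.786 and 0.726 in Ube3am-/p+ mice. *Etv1* thus had more counts than *Etv5* in each WT library and fewer in each Ube3am-/p+ library. Counts of *Etv1* per count of *Etv4* were 9.42, 10.4 and 11.5 in WT mice and 6.84, 6.0 and 5.83 in Ube3am-/p+ mice, again without overlap. The GC content of *Etv5* (51.8%) and *Etv4* (58.7%) is above that of *Etv1*, so these ratios carry the difference in GC content as well.

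**Figure D1:**
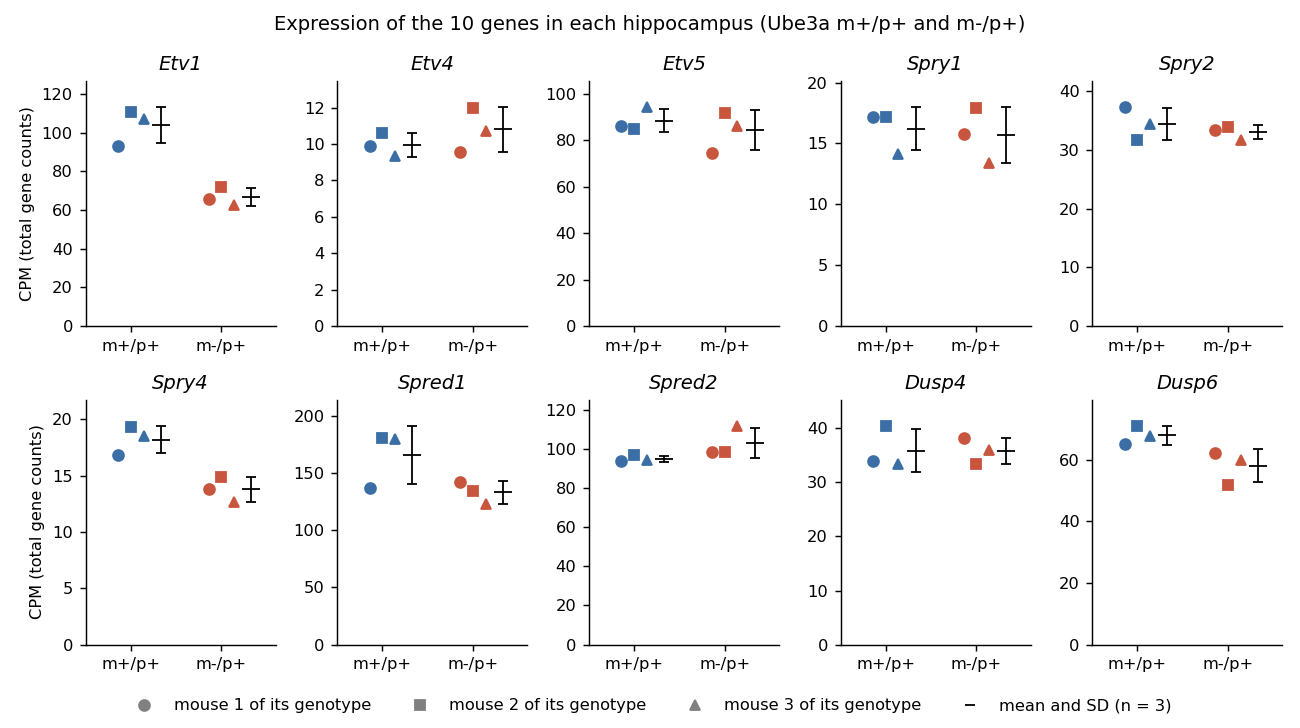
Expression of the 10 genes in each hippocampus. Points are single mice, in CPM (y axis, from 0), for Ube3am+/p+ (m+/p+, n = 3) and Ube3am-/p+ (m-/p+, n = 3) mice, with the mean and SD beside them. *Etv1*, *Spry4* and *Dusp6* lie lower without overlap in Ube3am-/p+ mice, *Spred2* lies higher without overlap, and the other 6 genes overlap.

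Among the Sprouty genes, whose proteins are induced by the signal they restrain, *Spry4* was lower in Ube3am-/p+ mice without passing the test. It had 16.8, 19.3 and 18.5 CPM in WT mice and 13.8, 14.9 and 12.7 CPM in Ube3am-/p+ mice, and the groups did not overlap. The means were 18.2 ± 1.23 and 13.8 ± 1.10 CPM (SD, n = 3 each), a ratio of 0.76 and a log2 fold change of -0.38 (SE 0.14). The GC content of *Spry4* (51.2%) is near the middle of the group, and after the correction its difference was -0.41 (SE 0.14). Its log2 ratio between the mice numbered 1 was -0.29, with a 95% counting interval of -0.65 to 0.07.

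*Spry2*, the Sprouty gene with the highest level, had 37.3, 31.8 and 34.4 CPM in WT mice and 33.5, 33.9 and 31.7 CPM in Ube3am-/p+ mice. These values overlapped, with means of 34.5 ± 2.76 and 33.1 ± 1.16 CPM (SD, n = 3 each) and a log2 fold change of -0.04 (SE 0.11). *Spry1* had 17.2, 17.2 and 14.1 CPM in WT mice and 15.8, 17.9 and 13.4 CPM in Ube3am-/p+ mice, which also overlapped. Its means were 16.2 ± 1.77 and 15.7 ± 2.27 CPM (SD, n = 3 each), with a log2 fold change of -0.03 (SE 0.15). Exons of *Spry1* share 710 bases with the gene model Gm42922 on the opposite strand, which, unlike *Snhg14*, is not listed in the counts. Without a known strand setting reads of *Spry1* and Gm42922 cannot be told apart. *Spry4* per count of *Spry2* was 0.451, 0.605 and 0.538 in WT mice and 0.411, 0.44 and 0.401 in Ube3am-/p+ mice, lower without overlap. These 2 genes differ in GC content too, at 51.2% and 46.2%, and after the correction their log2 fold changes were -0.41 and 0.01.

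The Spred proteins recruit neurofibromin to the membrane, where it inactivates Ras. *Spred1* had 137, 181 and 180 CPM in WT mice and 142, 134 and 123 CPM in Ube3am-/p+ mice. WT mouse 1 lay below Ube3am-/p+ mouse 1, so the groups overlapped, and WT mice varied by 15.3% where counting error gives 2.73%. The means were 166 ± 25.3 and 133 ± 9.82 CPM (SD, n = 3 each), a ratio of 0.80 and a log2 fold change of -0.30 (SE 0.11). *Spred1* has 41.2% GC, and after the correction its difference was -0.04 (SE 0.07). Its log2 ratio between the mice numbered 1 was 0.06, with a 95% counting interval of -0.06 to 0.18. Without WT mouse 1, *Spred1* passed the test (-0.42), a setting in which 2582 genes of the whole table passed.

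*Spred2* had 93.9, 96.9 and 94.3 CPM in WT mice and 98.6, 98.5 and 112 CPM in Ube3am-/p+ mice. It was the 1 gene of the group that was higher in Ube3am-/p+ mice without overlap, by a log2 fold change of 0.14 (SE 0.09), and its means were 95.1 ± 1.65 and 103 ± 7.73 CPM (SD, n = 3 each). *Spred1* per count of *Spred2* was 1.45, 1.87 and 1.9 in WT mice and 1.44, 1.36 and 1.1 in Ube3am-/p+ mice. The groups of this ratio came closest at the mice numbered 1, at 1.45 and 1.44. *Spred2* has 51.2% GC, above the 41.2% of *Spred1*, so this ratio also carries a difference in GC content. After the correction the log2 fold changes of *Spred1* and *Spred2* were -0.04 and 0.10.

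*Dusp6* encodes the cytoplasmic phosphatase of ERK. It had 65.1, 71.1 and 67.7 CPM in WT mice and 62.2, 52.0 and 60.1 CPM in Ube3am-/p+ mice, lower without overlap. The means were 68.0 ± 3.00 and 58.1 ± 5.41 CPM (SD, n = 3 each), a ratio of 0.85 and a log2 fold change of -0.21 (SE 0.10), and *Dusp6* did not pass the test. After the correction the difference was -0.21 (SE 0.09), and between the mice numbered 1 the log2 ratio was -0.07, with a 95% counting interval of -0.24 to 0.11.

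*Dusp4*, which encodes a nuclear phosphatase of ERK and related kinases, had 33.9, 40.5 and 33.5 CPM in WT mice and 38.3, 33.5 and 36.0 CPM in Ube3am-/p+ mice. The means were 35.9 ± 3.92 and 35.9 ± 2.42 CPM (SD, n = 3 each), the log2 fold change was 0.01 (SE 0.11), and the groups overlapped. *Dusp6* per count of *Dusp4* was 1.92, 1.76 and 2.02 in WT mice and 1.62, 1.55 and 1.67 in Ube3am-/p+ mice, lower without overlap. *Dusp6* has 49.0% GC and *Dusp4* 56.0%, so this ratio carries a difference in GC content as well. After the correction the log2 fold changes of *Dusp6* and *Dusp4* were -0.21 and -0.15.

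Taking the 10 genes as a list, 3 lay lower without overlap (*Etv1*, *Spry4* and *Dusp6*), where 14.2% of all genes did, and 1 lay higher without overlap (*Spred2*), where 10.8% of all genes did. As the group was chosen on this contrast, these counts are given without a reading. The median log2 fold change was -0.05 over the 10 genes and 0.0 over all genes, and the median size of the change was 0.14 and 0.18. After the correction the medians were -0.13 and -0.01. The correction turned the sign of *Etv4* (0.14 to -0.10), *Spry2* (-0.04 to 0.01) and *Dusp4* (0.01 to -0.15), and gave -0.11 for *Etv5*, -0.20 for *Spry1* and 0.10 for *Spred2*. Between the mice numbered 1, the log2 ratios of *Etv4*, *Spry1*, *Spry2*, *Spred2* and *Dusp4* were -0.05, -0.12, -0.16, 0.07 and 0.18, each with a 95% counting interval that includes 0. Across the 10 genes, GC content and log2 fold change had a Spearman's rho of 0.78, and across 14201 genes 0.62. After the correction the values were 0.09 and 0.02. These are descriptions across genes, which share the same 6 libraries.

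**Figure D2:**
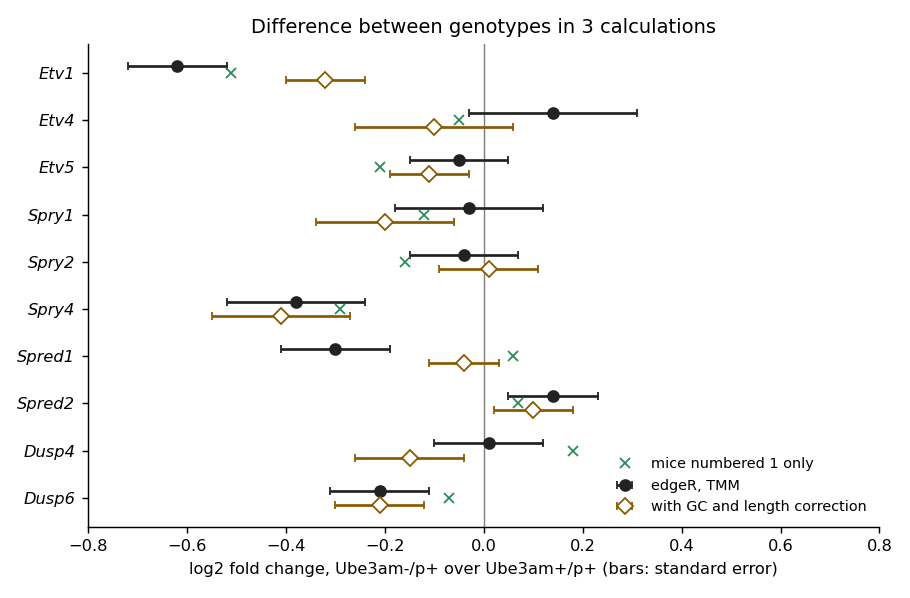
Difference between genotypes for each of the 10 genes in 3 calculations. The x axis is the log2 fold change, Ube3am-/p+ over Ube3am+/p+, from the edgeR fit, from the fit after correction for GC content and length, and from the mice numbered 1 alone. Bars are standard errors for the fits, derived from the F statistic. *Etv1*, *Spry4*, *Dusp6*, *Etv5* and *Spry1* lie below 0 in all 3. *Etv1* is at -0.62, -0.32 and -0.51, and *Spry4* at -0.38, -0.41 and -0.29. *Dusp6* is at -0.21, -0.21 and -0.07, *Etv5* at -0.05, -0.11 and -0.21, and *Spry1* at -0.03, -0.20 and -0.12. *Spred2* lies above 0 in all 3, at 0.14, 0.10 and 0.07. *Spred1* moves from -0.30 to -0.04 and 0.06.

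**Figure D3:**
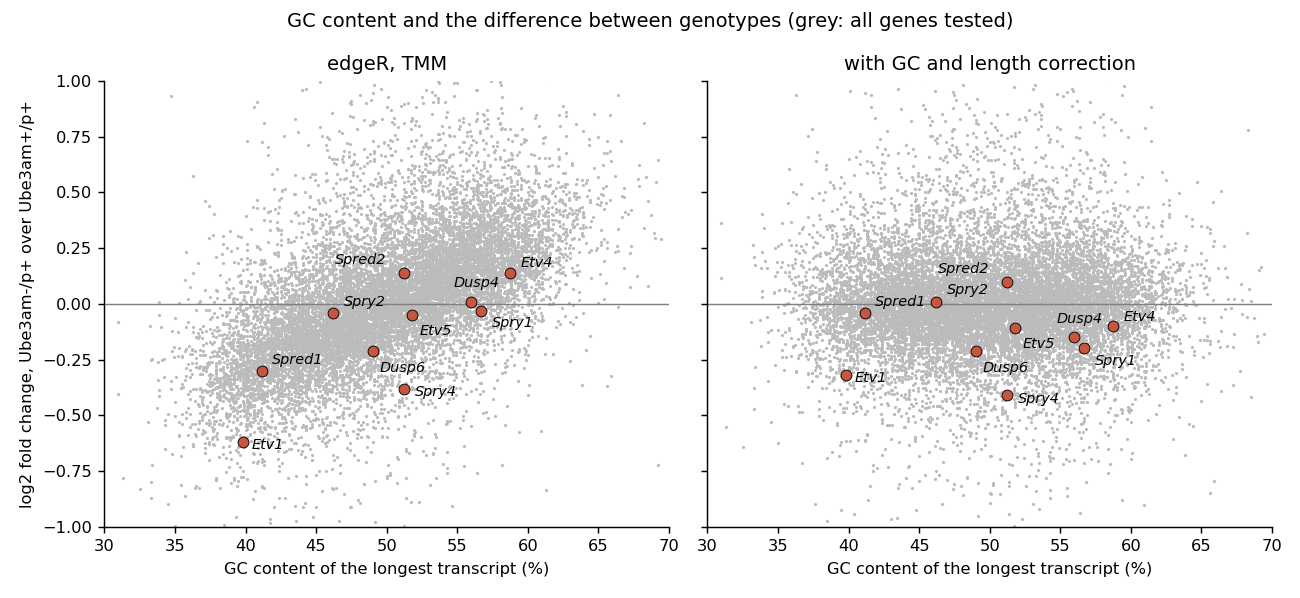
GC content of the longest transcript (x axis, percent) against the log2 fold change, Ube3am-/p+ over Ube3am+/p+ (y axis), before and after the correction for GC content and length. Grey points are the genes with both values that lie within the axes and labelled points are the 10 genes. *Etv1* (39.8% GC) and *Spred1* (41.2% GC) lie at the low end, and rho across all genes is 0.62 on the left and 0.02 on the right.

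Levels can be compared between genes only per length, here as CPM per kilobase of the longest annotated transcript in WT mice. *Spred1* stood highest at 27.5 ± 4.2, followed by *Dusp6* at 24.3 ± 1.07, *Etv5* at 22.2 ± 1.27 and *Spred2* at 21.4 ± 0.372 (SD, n = 3 each). Neighbours among these 4 overlapped. *Spry2* at 16.5 ± 1.32, *Etv1* at 15.8 ± 1.4 and *Dusp4* at 13.1 ± 1.43 CPM per kilobase came next, and neighbours among these overlapped too. *Spry1* at 5.83 ± 0.638, *Etv4* at 4.15 ± 0.268 and *Spry4* at 3.83 ± 0.259 CPM per kilobase were lowest, and *Etv4* and *Spry4* overlapped. In Ube3am-/p+ mice *Etv1* stood at 10.2 ± 0.74 CPM per kilobase, from 9.53 to 11, below *Dusp4* at 12.2 to 14.0. By merged exons in place of the longest transcript, *Etv1* came after *Dusp4* in WT mice as well.

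The 5 genes whose log2 CPM across the 6 libraries followed *Etv1* most closely were *Bag4* (Pearson's r 0.99), *Dock2* (0.99), *Rnf213* (0.99), *Fam107a* (0.99) and *Spry4* (0.99). *Spry4*, itself one of the 10 genes, ranked the 6 libraries in the same order as *Etv1*. All 5 were lower in Ube3am-/p+ mice, with log2 fold changes of -0.26, -0.42, -0.46, -0.42 and -0.38. The values share the 6 libraries and a difference between the genotypes, and 493 genes (3.41%) reached an r of 0.9, so the likeness is a description.

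The other genes of the pathway were taken from lists by role. At an unadjusted p below 0.05, 1795 of all 14445 genes tested were lower and 1765 higher. The unadjusted counts of each list are to be read beside these, and no list was tested against them. Of 18 secreted FGF ligand genes, 6 were tested, and the other 12 had at most 52 counts each over all 6 libraries. By edgeR 0 passed, with 1 at an unadjusted p below 0.05 and 1 by DESeq2, *Fgf10* in both cases. *Fgf10*, a ligand of FGFR2, had 16.4, 19.6 and 21 CPM in WT mice and 13.3, 13.1 and 12.1 CPM in Ube3am-/p+ mice, without overlap. Its log2 fold change was -0.55 (SE 0.14, edgeR adjusted p = 0.0527; DESeq2 adjusted p = 0.0342), and -0.33 (edgeR adjusted p = 0.241) after the correction. The median log2 fold change of the 6 ligand genes was -0.10 beside 0.0 over all genes, and -0.07 beside -0.01 after the correction. *Fgf9* had a log2 fold change of -0.27 (SE 0.14) and *Fgf16* of 0.48 (SE 0.47), and after the correction -0.04 and 0.36. Of 7 receptor and co-receptor genes, 5 were tested and 0 passed by edgeR or DESeq2, with 1 at an unadjusted p below 0.05. This was *Fgfrl1*, a receptor-like protein without a kinase domain, at 19.0 ± 1.62 and 23.0 ± 1.51 CPM (SD, n = 3 each; log2 fold change 0.29, SE 0.13), and its log2 fold change was 0.07 after the correction. The receptor genes *Fgfr1*, *Fgfr2* and *Fgfr3* had log2 fold changes of 0.05, 0.10 and 0.02, and the median of the 5 genes was 0.10. With the correction they were at -0.07, 0.08 and -0.14, and the median of the 5 genes was 0.07.

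All 25 genes of the adaptors and the Ras-ERK cascade were tested, and by edgeR 0 passed. At an unadjusted p below 0.05, 8 were lower and 4 higher, beside 1795 lower and 1765 higher of all 14445 genes tested. The median log2 fold change of the list was 0.00 beside 0.0 over all genes, and -0.02 after the correction. By DESeq2 4 passed, among them *Sos1* (-0.36), *Hras* (0.37) and *Mapk3* (0.30), named after their values were seen. *Sos1*, the exchange factor that loads Ras with GTP, was at 77.8 ± 7.51 CPM in WT and 60.1 ± 8.25 CPM in Ube3am-/p+ mice (SD, n = 3 each; edgeR adjusted p = 0.0722). *Hras*, a Ras gene, was at 75.6 ± 13.0 and 96.4 ± 7.69 CPM (SD, n = 3 each; edgeR adjusted p = 0.0779). *Rps6ka3*, which encodes an ERK-activated kinase, had a log2 fold change of -0.36 (edgeR adjusted p = 0.0878). After the correction *Sos1*, *Hras* and *Rps6ka3* had log2 fold changes of -0.09, 0.22 and -0.08, and 0 genes of this list passed.

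Of 11 other feedback inhibitors of receptor tyrosine kinases, 9 were tested, and by edgeR 0 passed, with 0 at an unadjusted p below 0.05. By DESeq2 0 passed as well, where a gene without an adjusted p counts as not passed. Their median log2 fold change was 0.11, and -0.03 after the correction. Of the named ones, *Cbl*, an E3 ligase for activated receptors, was at 0.40 (SE 0.69), *Spry3* at -0.25 (SE 0.16) and *Lrig1* at 0.19 (SE 0.11). With the correction *Cbl* was at 0.47 and *Lrig1* at 0.07, and *Spry3* had no corrected value. Of 20 other ETS factors and genes of the Capicua complex, 18 were tested and 0 passed by edgeR, with 1 lower and 3 higher at an unadjusted p below 0.05 and a median log2 fold change of 0.08. By DESeq2 1 passed, *Erf*, an ETS repressor that ERK exports from the nucleus. *Erf* had 52.3, 31.6 and 35.2 CPM in WT mice and 46.7, 63.8 and 62.2 CPM in Ube3am-/p+ mice, with overlap (log2 fold change 0.55, SE 0.19, edgeR adjusted p = 0.111; 0.33 after the correction). *Spi1*, a myeloid ETS factor, was at 0.67 (SE 0.30) and *Elf4* at -0.61 (SE 0.39), both at a few CPM. *Cic*, the repressor itself, was at 0.22 (SE 0.12). With the correction *Spi1*, *Elf4* and *Cic* were at 0.42, -0.64 and 0.01, and the median of this list was 0.09.

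All 8 immediate early genes, which respond within minutes to neuronal activity and ERK, were tested, and by edgeR 0 passed. By DESeq2 0 passed as well, where a gene without an adjusted p counts as not passed. *Fos*, *Fosb*, *Ier2* and *Egr2* had fewer counts than *Etv4*, which got no DESeq2 adjusted p. The DESeq2 result therefore cannot decide for these genes. At an unadjusted edgeR p below 0.05, 2 were lower and 2 higher. The median log2 fold change of the list was -0.13, and -0.24 after the correction. *Fos* had 9.89, 12.6 and 10.1 CPM in WT mice and 7.33, 6.1 and 7.98 CPM in Ube3am-/p+ mice, lower without overlap (log2 fold change -0.59, SE 0.19, edgeR adjusted p = 0.0789). *Ier2* was at -0.57 (SE 0.23) and *Junb* at 0.44 (SE 0.17). *Fos* and *Junb* were at -0.69 and 0.12 after the correction. After the correction 2 genes of this list passed, *Ier2* (-0.90, edgeR adjusted p = 0.0453) and *Arc* (-0.38, edgeR adjusted p = 0.023), with 92 genes over the whole table.

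**Figure D4:**
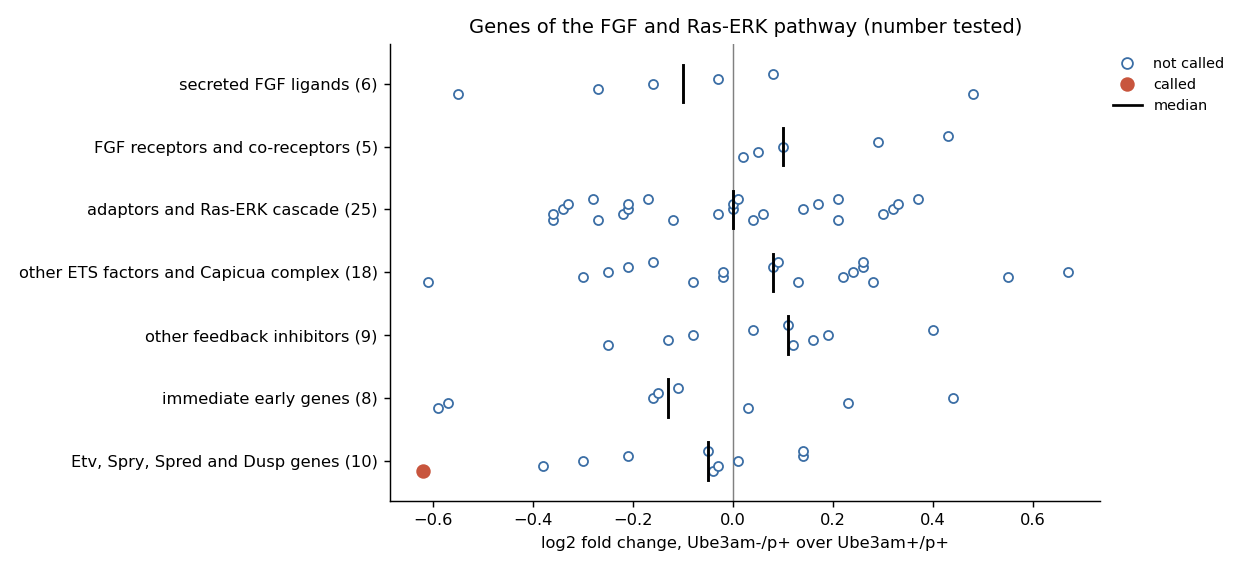
Genes of the FGF and Ras-ERK pathway by list, with the number tested. Each point is a gene, the x axis is its log2 fold change, Ube3am-/p+ over Ube3am+/p+, and the tick marks the median of the list. *Etv1* is the 1 gene in these lists that passed the edgeR test, and the medians of the lists lie between -0.13 and 0.11.

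Markers of the cell types of the tissue were summed in each library, and all of them were detected. Defining hippocampal excitatory markers were high, at 7560 to 8940 CPM in WT and 8670 to 9670 CPM in Ube3am-/p+ mice. The sums of 4 lists were lower in every Ube3am-/p+ mouse. These were astrocytes (4500 to 5030 and 3910 to 4240 CPM), mature oligodendrocytes (7530 to 7650 and 6230 to 7150 CPM), microglia (253 to 260 and 238 to 242 CPM) and inhibitory neurons (625 to 646 and 561 to 589 CPM). Abundant markers weigh most in such sums, and the single markers did not all lie lower. By the sign of the log2 fold change, 4 of 6 astrocyte markers, 3 of 5 of mature oligodendrocytes, 3 of 5 of microglia and 3 of 6 of inhibitory neurons were lower. The median log2 fold changes of these 4 lists were -0.19, -0.21, -0.10 and -0.09, and after the correction -0.05, -0.09, -0.11 and -0.11. The sums of the other 6 lists overlapped between the genotypes, with oligodendrocyte precursors at 319 to 341 and 324 to 333 CPM. By sign, 7 of 7 markers of meninges and fibroblasts were higher (median 0.44, and 0.42 after the correction). So were 5 of 5 of choroid plexus and ependyma (0.75, and 0.61 after the correction), a list whose sums varied widely within each genotype. The medians of the remaining lists lay between -0.06 and 0.15. Markers that passed the edgeR test were *Rorb* (-0.60, adjusted p = 0.0362), *Pdgfra* (-0.43, adjusted p = 0.0466), *Col1a1* (0.73, adjusted p = 0.0416) and *Foxj1* (1.01, adjusted p = 0.0361). After the correction *Pdgfra* (-0.36) and *Foxj1* (0.73) passed, and *Rorb* (-0.35) and *Col1a1* (0.55) did not. By DESeq2 *Foxj1*, with 656 counts over the 6 libraries, did not pass. *Etv4*, with 578 counts, got no DESeq2 adjusted p, and a gene without 1 counts as not passed. The DESeq2 result of *Foxj1* therefore cannot be read as contrary to that of edgeR. The part of these lists in the values of *Etv1*, *Spry4*, *Spred1* and *Dusp6* was not tested.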

How the data were processed

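Hippocampal RNA of 6 mice was sequenced. Per the labels and the submitters' processing notes, reads were aligned with STAR 2.7.4a to mm10 and counted with HTSeq, and the authors deposited raw counts per gene symbol for each library. The annotation and strand setting are not given in the sources used here. Reads on genes made up 39.0% to 41.8% of the reads listed, and lines that name no gene were left out. Reads that fell on no annotated feature made up 54.1% to 55.0%, and the reason was not tested.

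Counts were analysed in R 4.3.3 with edgeR 4.0.16 (filterByExpr, TMM, robust quasi-likelihood F test, two-sided, genotype as the only factor, Benjamini-Hochberg adjustment over 14445 genes). Genes passed with an adjusted p below 0.05 where the fold change was also above 1.2. The p-values measure only the spread between these mice. CPM was computed on total gene counts, and log2 CPM for likeness used a prior count of 2. The biological coefficient of variation was 0.102. The correction fitted natural splines with 5 degrees of freedom in each library, on the longest GENCODE M21 transcript's GC content and length (14201 genes, 98.3%). Alternatives were DESeq2 1.42.0, other scaling, other filters, the replicate number as a block, the correction, both together, an unadjusted p, and leaving out each mouse. DESeq2 gave *Etv4* no adjusted p, and a gene without an adjusted p counts as not passed. Comparing the mice numbered 1 alone, and leaving out both, were chosen after seeing the data.

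The members and lists were chosen with earlier results of these data known. The text names all members, *Ube3a*, list genes that passed, the 3 largest changes per list at a mean of at least 1 CPM, markers that passed, and the 5 genes most like *Etv1*. Other named genes were chosen after their values were seen, and the values of some genes are not reported here. Start-site windows are RefSeq's (GRCm38.p6), and positions are those of GENCODE M21 (GRCm38). Steps were tested on simulated data.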

Additional observations from a re-analysis of the deposited data

How the results depend on the processing

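In all 290 genes passed, against 967 with DESeq2, 1176 with no filter, 92 with the GC and length correction, 2832 at an unadjusted p with a fold change above 1.2 (the unadjusted setting throughout), 4138 without both mice numbered 1 and 0 to 2582 with each mouse left out. With a block for the replicate number 0 genes passed, and 13 with the block and the correction. Deviations of same-numbered mice from the mean of their genotype correlated at -0.285, -0.177 and -0.311. The GC gradients of the libraries, which ran in opposite directions in the 2 genotypes, enter these values. They therefore cannot show whether the numbers pair the mice. Of the 10 genes 1 passed, against 0 with the block, the correction or both, 3 in the unadjusted setting, 4 without both mice numbered 1 (*Etv1*, *Spry4*, *Spred1* and *Dusp6*) and 0 to 2 with each mouse left out. Their median log2 fold change of -0.05 became -0.13 with the correction, with or without the block, and ranged from -0.11 to -0.03 with each mouse left out. *Etv1* ranged from -0.69 to -0.32 over 16 alternatives, and passed in 8. In the lists 0 genes passed. FGF ligands gave 1 with DESeq2, no filter or the unadjusted setting, 4 without both mice numbered 1 and 0 to 1 with each mouse left out. Receptors gave 1 in the unadjusted setting. The cascade gave 4 with DESeq2, 5 with no filter, 9 in the unadjusted setting, 14 without both mice numbered 1 and 0 to 11 with each mouse left out. ETS factors gave 1 with DESeq2, 3 in the unadjusted setting, 6 without both mice numbered 1 and 0 to 3 with each mouse left out. Immediate early genes gave 2 with the correction, 3 in the unadjusted setting, 2 without both mice numbered 1 and 0 to 3 with each mouse left out. The cause was not tested. With 68 to 136 counts of *Etv4* per library, small differences were not detectable at this depth.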

Other observations

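*Kl*, a co-receptor of endocrine FGFs made in the choroid plexus, varied between libraries more than any of the 10 genes. It had 57.1, 35.2 and 114 CPM in WT mice 1 to 3 and 140, 99.5 and 34.8 CPM in Ube3am-/p+ mice 1 to 3, with overlap (log2 fold change 0.43, SE 0.72). The summed markers of choroid plexus and ependyma ranged from 71.1 to 2050 CPM in WT mice and from 83.8 to 2120 CPM in Ube3am-/p+ mice.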
